A study of Mus musculus with 16 samples.

Results

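Carbonic anhydrases, the enzymes that interconvert carbon dioxide and bicarbonate, were examined in whole cochleae of male DBA/2J mice, a strain with progressive hearing loss. All probes of the array whose only annotated gene symbol was Car1, Car2, Car3, Car4, Car8, Car9, Car12, Car13 or Car14 were taken, which gave 19 probes for 9 of the 18194 genes with such probes. Of these, 12 probes of 7 genes were bright enough to be tested; Car4 and Car9 were not, and their values and tests come from a fit to all probes without that filter. The M+V group was 6 mice, 12 weeks old, that had received 500 mg/kg of MET, a methyl donor, with 300 mg/kg of VPA, an Hdac inhibitor, under the skin every day for 8 weeks. The control group was 5 mice, 12 weeks old, that had received the sodium bicarbonate vehicle for the same 8 weeks. The third group was 5 untreated mice, 4 weeks old. Each array held the left cochlea of 1 mouse, and no other tissue was separated from it. The values are log2 MAS5 signals after the authors' quantile normalization, in which 1 unit is a doubling, and the median of each array was 6.90.

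The family has cytosolic members (Car1, Car2, Car3 and Car13), members held at the outer face of the cell membrane (Car4, Car9, Car12 and Car14), and Car8, a related protein without the enzyme activity. Car1 and Car2 are major proteins of red blood cells, Car2 also serves acid secretion by osteoclasts, and Car3 is abundant in skeletal muscle, fat and liver. In the inner ear, carbonic anhydrases are known from fibrocytes of the spiral ligament and from epithelia, where they supply the bicarbonate that is carried into endolymph. Car13, Car1, Car3 and Car2 lie next to one another, in this order, on chromosome 3 of the reference assembly (GRCm38.p6). The other members lie on chromosome 3 (Car14), 4 (Car8 and Car9), 9 (Car12) and 11 (Car4).

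RefSeq promoters (GRCm38.p6, 250 bases before to 50 bases after the start of the gene) were matched for 4 of the 9 members. The promoters of Car12 and Car14, which varied together over the arrays, and of Car9, a hypoxia-induced gene, are shown 5′ to 3′ in the direction of the gene. Capitals mark ACGTG on either strand (CACGT as printed), the core of the hypoxia response element.
Car12, chr9:66713436-66713735, plus strand: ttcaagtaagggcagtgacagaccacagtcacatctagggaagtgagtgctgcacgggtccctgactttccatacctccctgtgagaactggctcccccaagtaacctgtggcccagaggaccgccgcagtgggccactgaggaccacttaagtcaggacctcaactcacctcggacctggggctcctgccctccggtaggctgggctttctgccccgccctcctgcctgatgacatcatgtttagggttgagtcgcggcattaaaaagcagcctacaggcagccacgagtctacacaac
Car14, chr3:95904636-95904935, minus strand: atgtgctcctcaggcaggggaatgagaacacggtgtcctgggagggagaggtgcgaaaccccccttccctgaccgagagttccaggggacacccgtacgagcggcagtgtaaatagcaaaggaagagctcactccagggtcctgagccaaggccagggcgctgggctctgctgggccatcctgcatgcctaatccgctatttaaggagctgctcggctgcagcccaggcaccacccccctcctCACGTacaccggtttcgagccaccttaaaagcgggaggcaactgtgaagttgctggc
Car9, chr4:43506776-43507075, plus strand: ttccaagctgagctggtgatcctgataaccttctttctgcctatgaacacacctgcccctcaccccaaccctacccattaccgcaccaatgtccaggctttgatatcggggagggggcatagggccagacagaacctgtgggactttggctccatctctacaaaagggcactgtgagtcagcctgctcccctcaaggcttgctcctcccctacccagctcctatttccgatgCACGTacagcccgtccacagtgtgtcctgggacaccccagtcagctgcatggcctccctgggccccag
The 5 letters were found once in the promoters of Car14 and Car9, starting at positions -7 and -18 from the start of the gene, and once in that of Car4, at position 3, but not in this window of Car12. The same letters were present in 19.6% of all 32851 promoters of this length. GC content of the printed promoters was 58.3% for Car12, 61% for Car14 and 58.3% for Car9.

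Some arrays stood apart before any comparison. The bioB spike-in, a control RNA added at hybridization, was high in 8 arrays (8.91 to 9.62; M+V replicates 1 and 2, control replicate 1 and the 4-week group) and low in the other 8 (5.73 to 6.08). M+V replicate 1 had the lowest erythroid signal: the summed signal of the 11 measured genes of a 14-gene erythroid list was 1996 there, against 23961 to 50315 in the other 15 arrays. The 12 genes of an osteoclast list summed to 79385 in that array, against 13070 to 24936 elsewhere. In the whole table, 0 of 11457 genes passed limma's test at an adjusted p of 0.05 for M+V against control, 1011 had an unadjusted p under 0.05, and the methods' own test (unequal variances, per probe) also called 0 after adjustment.

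By the brightest probe of each gene, 0 of the 7 tested members differed between M+V and control cochleae (0% of all genes), 0 of 7 between M+V and 4-week cochleae (4.93%), and 0 of 7 between control and 4-week cochleae (1.45%), with limma's test across all probes and Benjamini-Hochberg adjustment. At an unadjusted p under 0.05 the count was also 0 of 7 in each comparison, against 8.82% of all genes for M+V against control, 22.1% for M+V against 4 weeks and 13.9% for control against 4 weeks, and the methods' own test after adjustment called none. The median log2 fold change of the 7 members was -0.03 for M+V against control (0.02 over all genes), -0.03 for M+V against 4 weeks (0.03 over all genes) and -0.04 for control against 4 weeks (0.01 over all genes). A member was lower in 12-week cochleae only when its dimmer probes were counted: Car3 had at least 1 probe that passed the test and was lower in M+V than in 4-week cochleae (1 of 7 members, against 4.36% of all genes), and in control than in 4-week cochleae (1 of 7, against 1.45%). No member had such a probe for M+V against control (0% of all genes). The Car3 count for control rests on probe 1453588_at alone, which passed the filter only through the 4-week group, where it was high. That count is therefore a description. The groups did not overlap in the brightest probe of 0 of 7 members for M+V against control (0.899% of all genes), 0 of 7 for M+V against 4 weeks (5.08%), and 1 member, Car3, for control against 4 weeks (5.93%).

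**Figure D1:**
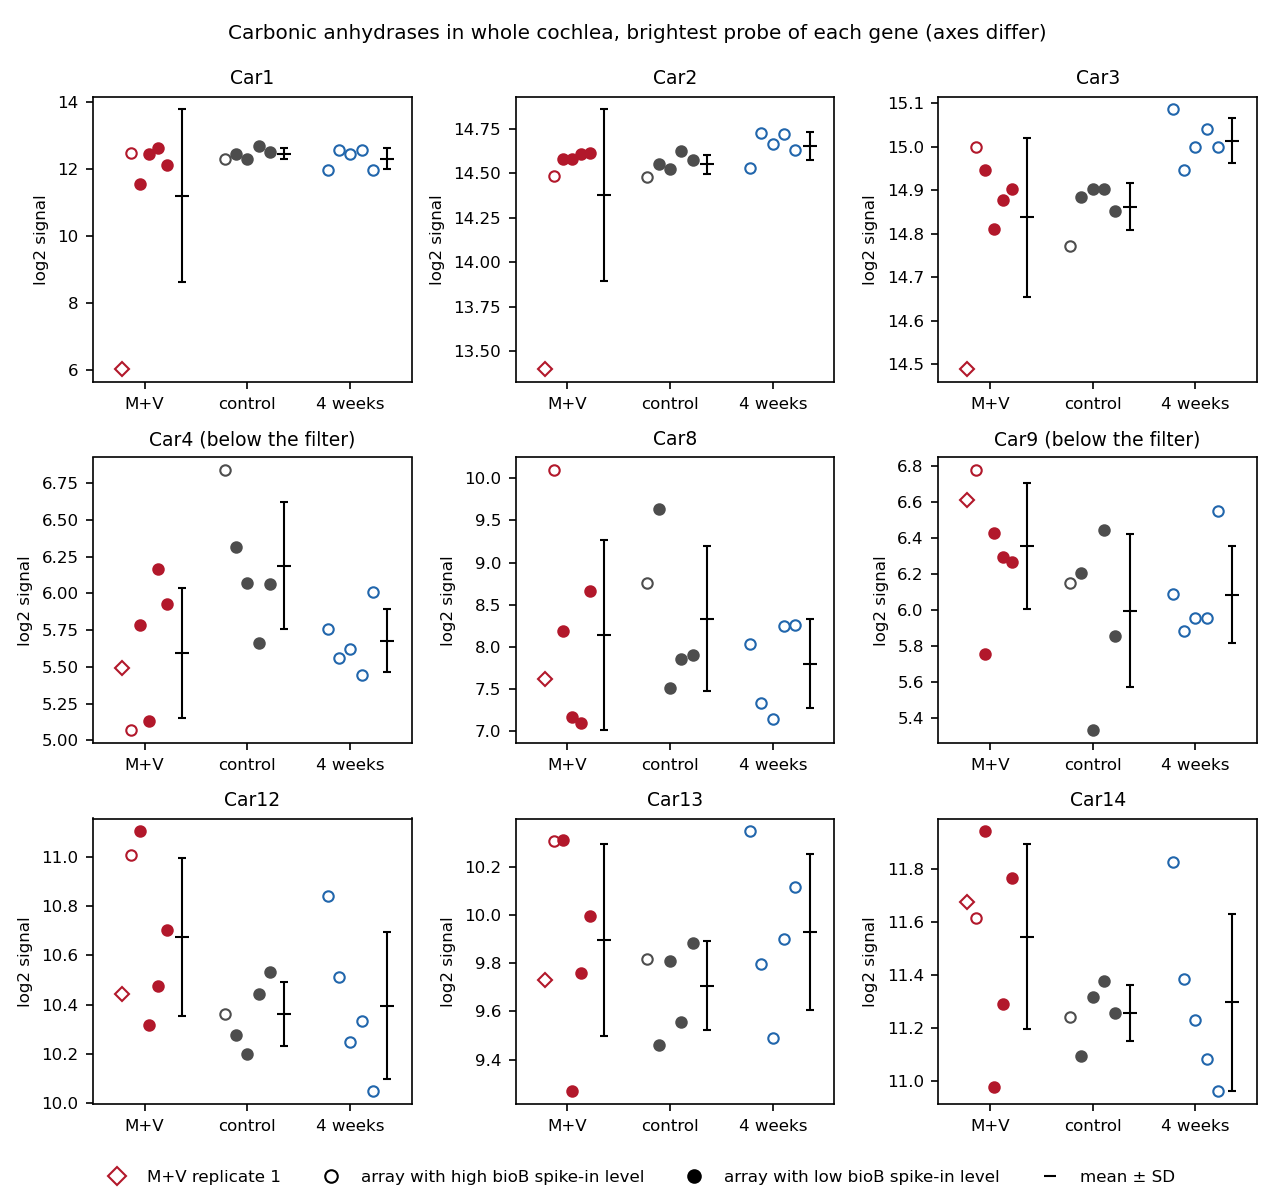
Log2 signal of the brightest probe of each carbonic anhydrase in every array, by group, with the mean and SD; open symbols are arrays with a high bioB spike-in and the diamond is M+V replicate 1. M+V replicate 1 lies below all other arrays for Car1, Car2 and Car3, at 6.01, 13.40 and 14.49.

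Car1, the low-activity enzyme of red blood cells, was at 6.01 in M+V replicate 1 and at 12.48, 11.54, 12.44, 12.62 and 12.12 in M+V replicates 2 to 6, against 12.31, 12.45, 12.30, 12.70 and 12.50 in the control arrays. The arrays at 4 weeks had 11.97, 12.56, 12.46, 12.57 and 11.97. M+V replicate 1 alone was far below the rest, and M+V replicate 3 was the second lowest. Its value there was below the array median, so its distance from the mean of the other 5 M+V arrays is given as a bound, set by that median: Car1 was at least 40.6-fold lower in M+V replicate 1. Mean levels were 11.20 ± 2.57 in M+V (SD, n = 6) and 12.45 ± 0.17 in control cochleae (SD, n = 5), a log2 difference of -1.25 (SE 0.86, adjusted p = 0.66 by limma). Without M+V replicate 1 this became -0.21 (SE 0.19, adjusted p = 0.78). Against 4 weeks Car1 had a log2 difference of -1.10 (SE 0.86, adjusted p = 0.48) in M+V cochleae and 0.15 (SE 0.90, adjusted p = 0.97) in control cochleae. In whole-tissue RNA, fewer cells of a type and less RNA per cell cannot be told apart.

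Car2, the high-activity enzyme that red blood cells share with osteoclasts and many epithelia, was likewise lowest in M+V replicate 1, by a smaller margin, but otherwise varied differently from Car1 (r = 0.97 between them over 16 arrays and 0.24 without that array). It was at 13.40 in M+V replicate 1 and between 14.48 and 14.61 in the other 5 M+V arrays, against 14.48, 14.55, 14.52, 14.62 and 14.57 in control and 14.53, 14.72, 14.67, 14.72 and 14.63 in 4-week cochleae. The M+V range of the other 5 arrays lay within that of the control arrays. Car2 had a log2 difference of -0.17 (SE 0.17, adjusted p = 0.76) for M+V against control, which became 0.02 (SE 0.07, adjusted p = 0.95) without M+V replicate 1. For control against 4 weeks it was -0.10 (SE 0.18, adjusted p = 0.85 by limma; two-sided exact permutation p = 0.0476).

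Car1 and Car2 were set against the erythroid list, whose array score is the mean over its genes of the log2 signal minus each gene's own mean. Since M+V replicate 1 formed a point of its own (score -5.04, against -0.38 to 0.74 elsewhere), correlations are given over the other 15 arrays. Car1 followed the list with r = 0.90 and rho = 0.86 (two-sided permutation p = 3e-05 and 0.00012; adjusted p = 0.00033 and 0.00132 over 11 relations of members to lists). It did so with group means removed (r = 0.92), in the 8 arrays with a low spike-in (r = 0.96) and in the 7 others with a high one (r = 0.82), and without M+V replicate 3 as well (r = 0.82 over 14 arrays). For Car2 the relation was weaker and missed the threshold (r = 0.51, rho = 0.54, permutation p = 0.0526 and 0.042, adjusted p = 0.116 and 0.0925). Within spike-in levels it was 0.08 in the 8 arrays with the low level and 0.81 in the 7 with the high level. Car2 against the osteoclast list gave r = 0.38 over the 15 arrays (permutation p = 0.157, adjusted p = 0.289); the array with by far the highest osteoclast sum was the one with the lowest Car2.

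**Figure D2:**
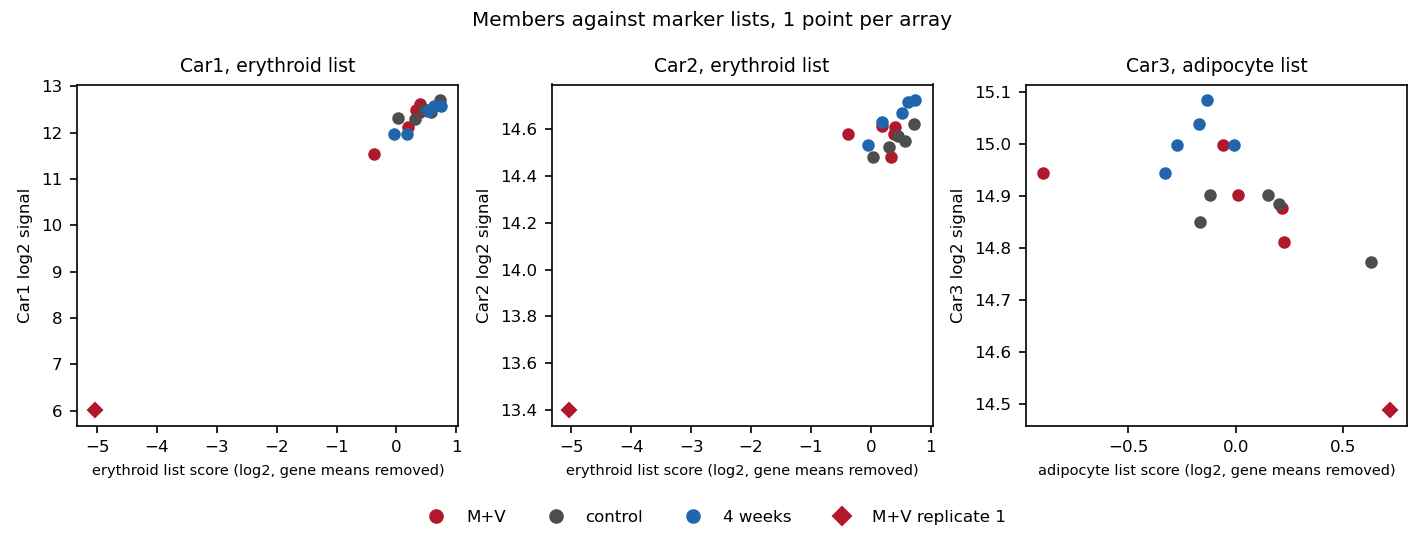
Log2 signal of Car1 and Car2 against the erythroid score, and of Car3 against the adipocyte score, with 1 point per array; scores are mean log2 signals with each gene's mean removed. M+V replicate 1 lies apart at an erythroid score of -5.04, and the other 15 arrays follow the list for Car1 (r = 0.90).

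The genes most like Car1 among 11456 by Pearson's r over the 16 arrays were Kel, a blood group protein of red cells (r = 1.00), Tspan33 (r = 1.00) and Klf1, an erythroid transcription factor (r = 0.99). For Car2 they were Trim10 (r = 0.99), Klf1 (r = 0.98) and Btnl10 (r = 0.98). These values rest mostly on M+V replicate 1: without it Kel and Car1 gave r = 0.92, but Trim10 and Car2 gave 0.70 and Klf1 and Car2 0.53. The genes nearest to Car1 then were Hmgb2 (r = 0.96), Cks1b (r = 0.95) and Rbl1 (r = 0.95), and those nearest to Car2 were Tmem209 (r = 0.85), Wdr75 (r = 0.85) and Top1 (r = 0.84).

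Car3, a cytosolic enzyme of low activity, was the only member with a probe that passed the test, and its level was lower at 12 weeks. Probe 1453588_at was at 6.19, 7.31, 7.16, 6.50, 7.23 and 7.17 in M+V cochleae, against 8.28, 8.21, 7.74, 8.01 and 7.68 in 4-week cochleae. The groups did not overlap. Its log2 fold change was -1.06 (SE 0.21, adjusted p = 0.00925 by limma; two-sided exact permutation p = 0.00216, the smallest that 6 against 5 arrays allow). Control cochleae had 7.46, 6.96, 7.26, 6.73 and 6.66, also all below the 4-week arrays, with a log2 difference of -0.97 (SE 0.22, adjusted p = 0.0363; exact permutation p = 0.00794, the smallest for 5 against 5). These 2 comparisons share their 4-week arrays. The probe was at or above the array median in all 5 4-week arrays, but in 4 of 6 M+V and 3 of 5 control arrays. It thus passed the filter only through the group where it was high, and its differences from 4 weeks are a description. Between M+V and control cochleae the probe differed by -0.09 (SE 0.21, adjusted p = 0.92).

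The second Car3 probe, 1430584_s_at, was at 8.04, 9.04, 9.16, 9.03, 9.41 and 9.35 in M+V cochleae, against 10.60, 10.08, 9.92, 9.86 and 9.61 at 4 weeks. It was lower in every M+V array than in any 4-week array, with a log2 difference of -1.01 (SE 0.23, adjusted p = 0.0184 by limma). In control cochleae it was at 9.10, 9.29, 9.66, 8.76 and 9.05, and 1 of these 5 arrays, replicate 3, lay just inside the 4-week range. The log2 fold change of -0.84 there (SE 0.24, adjusted p = 0.103) missed the threshold. Probe 1460256_at had log2 fold changes of -0.50 (SE 0.24, adjusted p = 0.23) for M+V and -0.42 (SE 0.25, adjusted p = 0.49) for control against 4 weeks.

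The brightest Car3 probe, 1449434_at, lay near the top of the table, whose highest value was 15.4. It was at 14.49, 14.999, 14.95, 14.81, 14.88 and 14.90 in M+V cochleae, at 14.77, 14.88, 14.90, 14.90 and 14.85 in control cochleae and at 15.09, 14.95, 14.999, 15.04 and 14.999 at 4 weeks. All 5 control arrays were below all 4-week arrays, but the log2 fold change was only -0.15 (SE 0.09, adjusted p = 0.48 by limma; exact permutation p = 0.00794). For M+V against 4 weeks it was -0.18 (SE 0.09, adjusted p = 0.24). All 4 probes had negative log2 fold changes in both comparisons with 4 weeks, and the other 3 correlated with the brightest one at r = 0.69 to 0.70 over the 15 arrays without M+V replicate 1. M+V replicate 1 was the lowest of all 16 arrays on all 4 probes.

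**Figure D3:**
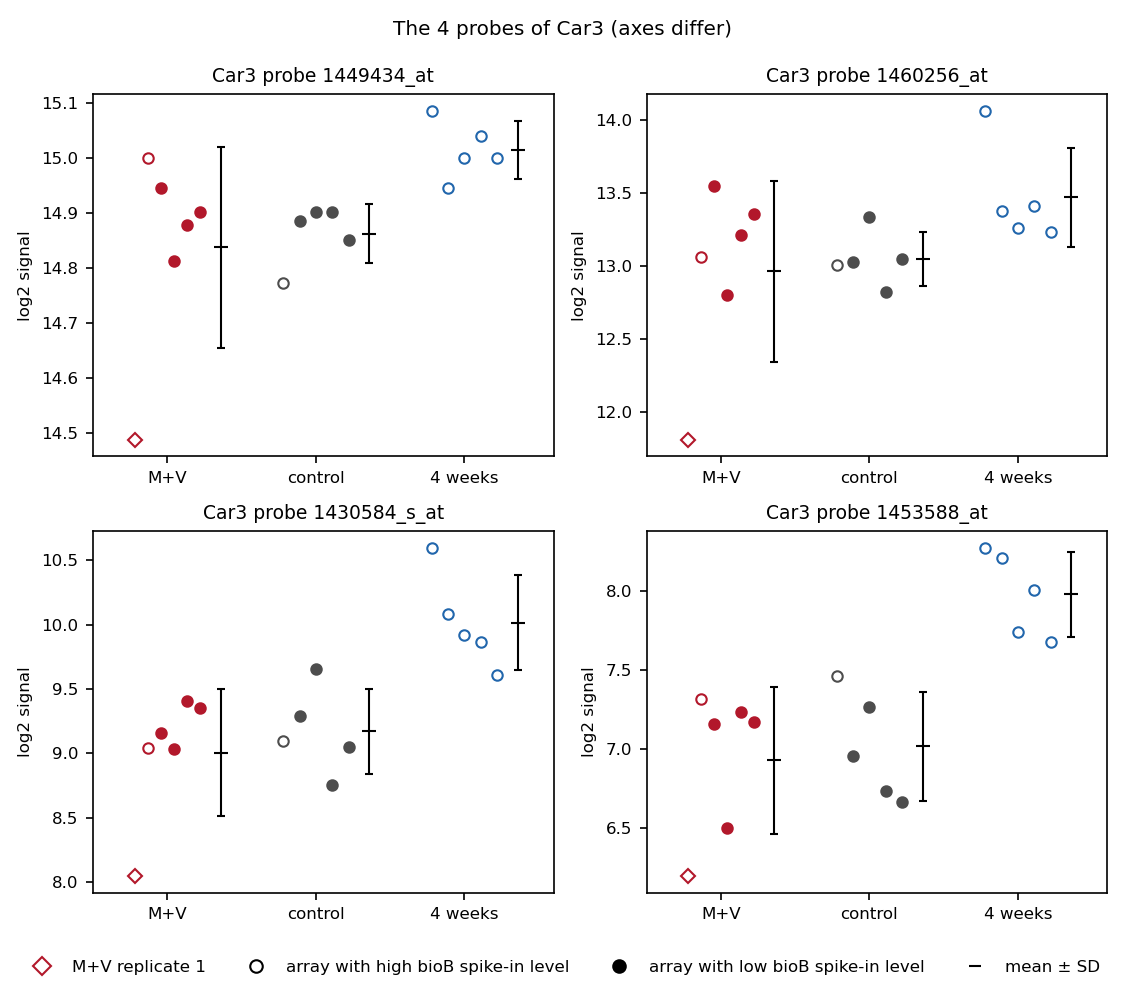
Log2 signal of the 4 Car3 probes in every array, by group, with the mean and SD; open symbols are arrays with a high bioB spike-in. The 4-week arrays lie above all M+V and control arrays on probe 1453588_at, and the brightest probe, 1449434_at, spans the smallest range.

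The difference of Car3 between 12-week and 4-week cochleae went along with the spike-in level, which was high in all 4-week arrays. All 12-week mice had also received 8 weeks of injections and the 4-week mice none, so age and injection cannot be told apart. Within the high level, probe 1453588_at had a log2 difference of -1.23 (adjusted p = 0.054) for M+V replicates 1 and 2 against 4 weeks, and of -0.52 (adjusted p = 0.86) for control replicate 1 alone against 4 weeks, where a single array is assumed to vary like the other groups. With the spike-in level as a block in the fit the values were -1.03 (adjusted p = 0.0348) for M+V and -0.93 (adjusted p = 0.165) for control. Probe 1430584_s_at gave -1.47 (adjusted p = 0.039) for M+V within the high level, and -0.92 for control replicate 1 alone. With the block this probe gave -1.32 (adjusted p = 0.0101) for M+V and -1.22 (adjusted p = 0.0644) for control. These M+V values include M+V replicate 1, the lowest of all arrays on every Car3 probe. It was at 8.04 on probe 1430584_s_at and 6.19 on probe 1453588_at, against 9.04 and 7.31 in M+V replicate 2. The call of 1453588_at in control cochleae was lost when any of control replicates 2 to 5 or 4 weeks replicates 1 to 4 was left out (adjusted p up to 0.107), and without M+V replicate 1 its adjusted p was 0.00846. In M+V cochleae it held without each array in turn (adjusted p 0.0081 to 0.0304).

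Oligodendrocytes, the myelin-forming cells of the central nervous system, are present where the auditory nerve leaves the cochlea, and their genes were measured beside Car3. The summed signal of 8 oligodendrocyte genes was 20871 to 39246 in M+V, 33098 to 42251 in control and 38620 to 45322 in 4-week cochleae, and none was at the floor in any array. For M+V against 4 weeks, 0 of the 6 tested genes had a log2 fold change above 0, the median was -0.62 (0.03 over all genes), and Ugt8a and Mal passed the test (adjusted p = 0.0158 and 0.0405 by limma). With the score of these and the astrocyte genes as a covariate, the M+V differences of Car3 were -0.92 (adjusted p = 0.0522) on probe 1453588_at and -0.80 (adjusted p = 0.0976) on probe 1430584_s_at, neither past the threshold.

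Car3 was set against marker lists of muscle and fat, both known to contain it. Its r with the fast skeletal muscle list was -0.09 over the 15 arrays without M+V replicate 1 (adjusted p = 0.83 by permutation). With the adipocyte list, of which 6 of 8 genes were measured, the relation was inverse: r = -0.68 and rho = -0.71 over 16 arrays (permutation p = 0.00672 and 0.00283, adjusted p = 0.0187 and 0.0156), and r = -0.54 and rho = -0.65 over 15 arrays (permutation p = 0.0364 and 0.0112, adjusted p = 0.1 and 0.0411). It was -0.69 without M+V replicates 1 and 3, -0.64 in the 8 low spike-in arrays and -0.79 in the 7 remaining high ones. With group means removed r was weaker, at -0.44 over the 15 arrays. Of the 6 measured adipocyte genes, 3 were bright enough to be tested. Over the 16 arrays, the gene most like Car3 was Otos, otospiralin of cochlear fibrocytes (r = 0.93, and 0.79 without M+V replicate 1), followed by Cep112 (r = 0.91) and Narf (r = 0.90). Without that array Slc35f5 (r = 0.91), Egfl6 (r = 0.86) and Twist1 (r = 0.86) were nearest. The summed signal of 8 fibrocyte genes, Otos included, ranged from 74073 to 130211 in M+V, 95377 to 100796 in control and 110757 to 134564 in 4-week cochleae. None of the 8 passed the test in any comparison. For M+V against 4 weeks, 1 of the 8 had a log2 fold change above 0 (median -0.18, 0.03 over all genes). For control against 4 weeks it was 0 of 8 (median -0.23, 0.01 over all genes).

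Car13, the remaining cytosolic member, passed the test in no comparison. Its brightest probe was at 9.73, 10.31, 10.31, 9.27, 9.76 and 9.99 in M+V cochleae, at 9.82, 9.46, 9.81, 9.56 and 9.88 in control cochleae and at 10.35, 9.80, 9.49, 9.90 and 10.11 at 4 weeks. All ranges overlapped. The log2 fold changes were 0.19 (SE 0.18, adjusted p = 0.75) for M+V against control, -0.03 (SE 0.18, adjusted p = 0.94) for M+V against 4 weeks and -0.22 (SE 0.19, adjusted p = 0.66) for control against 4 weeks. Unlike its neighbours on the chromosome, Car13 was not low in M+V replicate 1 (9.73). Over the other 15 arrays it ran against the erythroid list, with r = -0.64 and rho = -0.64 (permutation p = 0.00993 and 0.0112, adjusted p = 0.0364 and 0.0411), and this was -0.78 in the low and -0.54 in the high spike-in arrays. Over all 16 arrays r was -0.04, since M+V replicate 1 combined the lowest erythroid score with an average Car13. Genes most like Car13 were Frem1 (r = 0.92), Gna14 (r = 0.91) and Epcam, an epithelial adhesion molecule (r = 0.90).

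Car12, a membrane-spanning enzyme with its active site outside the cell, was at 10.44, 11.01, 11.10, 10.32, 10.48 and 10.70 in M+V cochleae, against 10.36, 10.28, 10.20, 10.44 and 10.53 in control cochleae. At 4 weeks it was at 10.84, 10.51, 10.25, 10.33 and 10.05. M+V replicates 2, 3 and 6 were above all control arrays, and the other 3 lay within their range. The mean was 10.68 ± 0.32 in M+V (SD, n = 6) and 10.36 ± 0.13 in control cochleae (SD, n = 5), a log2 difference of 0.31 (SE 0.16, adjusted p = 0.53 by limma; exact permutation p = 0.0866). A second Car12 probe, 1447762_x_at, lay below the filter, with 7.002, 7.91, 7.04, 6.45, 6.62 and 6.45 in M+V and 5.96, 3.21, 5.60, 6.21 and 6.29 in control cochleae. On that probe the groups did not overlap, and the log2 fold change was 1.46 (SE 0.47, adjusted p = 0.68 in the fit without the filter; exact permutation p = 0.00216). At a fold over 1.5 and limma's unadjusted p under 0.05, it was the 1 of 19 member probes higher in M+V than control. Of all probes with 1 gene symbol, 1.45% were higher at these cutoffs. The methods set the same cutoffs on their own test, with unequal variances, and on probes called present. Control replicate 2, at 3.21, was far below the other control arrays on this probe, and without it the log2 fold change was 0.90. The third probe, 1446517_at, was near the bottom of the table in all arrays (0.45 to 4.67).

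Car14, a related membrane-spanning enzyme, was at 11.68, 11.61, 11.94, 10.98, 11.29 and 11.77 in M+V cochleae, at 11.24, 11.09, 11.32, 11.38 and 11.26 in control cochleae and at 11.83, 11.39, 11.23, 11.08 and 10.96 at 4 weeks. In M+V replicates 1, 2, 3 and 6 it was above all control arrays, and in M+V replicate 4 below them. The log2 fold change for M+V against control was 0.29 (SE 0.17, adjusted p = 0.58), and for M+V against 4 weeks 0.25 (SE 0.17, adjusted p = 0.40).

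Car12 and Car14 varied together from array to array, with r = 0.84 over 16 arrays and 0.89 without M+V replicate 1. Car13 went with both (r = 0.66 with Car12 and 0.67 with Car14, without that array). These were the only 3 of the 36 pairs of members with r over 0.6 over those 15 arrays, where the other pairs ranged from -0.63 to 0.54. All members of an array share its RNA and its normalization, so these values are a description. The genes most like Car12 were Gsta4 (r = 0.93), Prom2 (r = 0.90) and Zfp185 (r = 0.90), and without M+V replicate 1 Kcne1, a potassium channel subunit of strial marginal cells (r = 0.95), Spg21 (r = 0.94) and Gsta4 (r = 0.93). For Car14 they were BC029722 (r = 0.92), Synj2 (r = 0.91) and Zic2 (r = 0.87).

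Car12 and Car9 are known targets of the hypoxia response, for which a list of 13 genes was used. Car12 correlated with its score at r = 0.65 and rho = 0.57 over 16 arrays (permutation p = 0.00681 and 0.0224, adjusted p = 0.0187 and 0.0617). That rested on M+V replicates 2 and 3, the arrays with the most extreme scores, since r was 0.19 over the other 14. It was 0.90 in the 8 low spike-in arrays and 0.49 in the 8 high ones. The score itself spanned only -0.09 to 0.14.

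**Figure D4:**
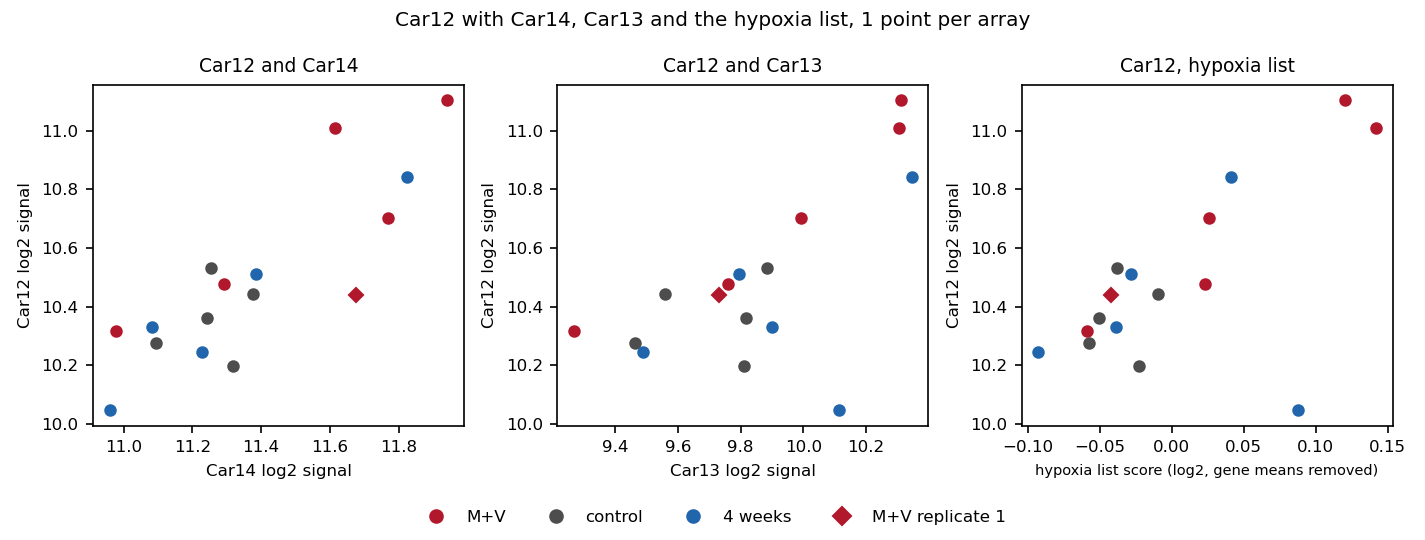
Log2 signal of Car12 against Car14, Car13 and the hypoxia score (mean log2 signal of 13 genes with each gene's mean removed), with 1 point per array. Car12 and Car14 rise together over the 16 pooled arrays (r = 0.84, not computed within each group), while the relation to the hypoxia score rests on M+V replicates 2 and 3.

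Car9, the hypoxia-induced membrane enzyme, was below the array median in every array and was not tested. It was at 6.61, 6.78, 5.76, 6.43, 6.30 and 6.27 in M+V cochleae, at 6.15, 6.21, 5.33, 6.44 and 5.86 in control cochleae and at 6.09, 5.88, 5.95, 5.96 and 6.55 at 4 weeks. The ranges overlapped, and in the fit without the filter the log2 fold change for M+V against control was 0.36 (SE 0.21, adjusted p = 0.73). Its r with the hypoxia list was 0.27 over 16 arrays (permutation p = 0.31, adjusted p = 0.48). Abi1 (r = 0.82), Cemip2 (r = 0.80) and 2610001J05Rik (r = 0.80) were most like it.

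Car4, anchored to the outer membrane of endothelium and epithelia, was also below the array median in every array. Its brighter probe was at 5.49, 5.07, 5.78, 5.13, 6.17 and 5.93 in M+V cochleae, at 6.84, 6.32, 6.07, 5.66 and 6.06 in control cochleae and at 5.76, 5.56, 5.62, 5.44 and 6.01 at 4 weeks. M+V and control arrays overlapped in part. The log2 fold change for M+V against control was -0.59 (SE 0.23, unadjusted p = 0.02 and adjusted p = 0.68 by limma without the filter, exact permutation p = 0.0541). By limma's unadjusted p under 0.05 and fold over 1.5, this probe was the 1 of 19 member probes lower, against 1.77% of all probes. In the low spike-in arrays its difference was -0.27 (adjusted p = 0.90 by limma). Against 4 weeks it differed by -0.08 (SE 0.23, adjusted p = 0.91) in M+V and by 0.51 (SE 0.24, adjusted p = 0.54) in control cochleae. For M+V against control the dimmer probe gave -1.21 (SE 0.57, adjusted p = 0.69), with M+V arrays spread from 1.94 to 5.38 and control arrays from 4.14 to 5.76. Car4 did not follow the endothelium list (r = 0.11 over 16 arrays, permutation p = 0.68, adjusted p = 0.74). Its closest genes were Gpm6a, a membrane glycoprotein of neurons (r = 0.88), Cnr1, the cannabinoid receptor of neurons (r = 0.85), and Rit2 (r = 0.84).

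Car8, the carbonic anhydrase-related protein of Purkinje cells, had the widest spread of the 9 brightest probes in control and in 4-week cochleae. It was at 7.62, 10.09, 8.19, 7.17, 7.10 and 8.66 in M+V cochleae, at 8.76, 9.64, 7.51, 7.85 and 7.91 in control cochleae and at 8.03, 7.33, 7.14, 8.25 and 8.25 at 4 weeks. M+V replicate 2 and control replicate 2 were the highest. SDs were 1.13 in M+V, 0.86 in control and 0.53 in 4-week cochleae, and the log2 fold changes were -0.19 (SE 0.48, adjusted p = 0.92) for M+V against control and 0.34 (SE 0.48, adjusted p = 0.73) for M+V against 4 weeks. Of a 7-gene list of cerebellar neurons 5 genes were measured and 2 were bright enough to be tested. The r of Car8 with this list was 0.28 over 16 arrays (permutation p = 0.30, adjusted p = 0.48). Ranked by r among 11456 genes, without a test, its closest were Dsg2 (r = 0.82), Patj (r = 0.82) and 4931406C07Rik (r = 0.81). Dsg2 is a desmosomal cadherin and Patj a protein of epithelial tight junctions. The other 2 Car8 probes were dim and did not follow the brightest one (r = -0.09 and 0.40).

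**Figure D5:**
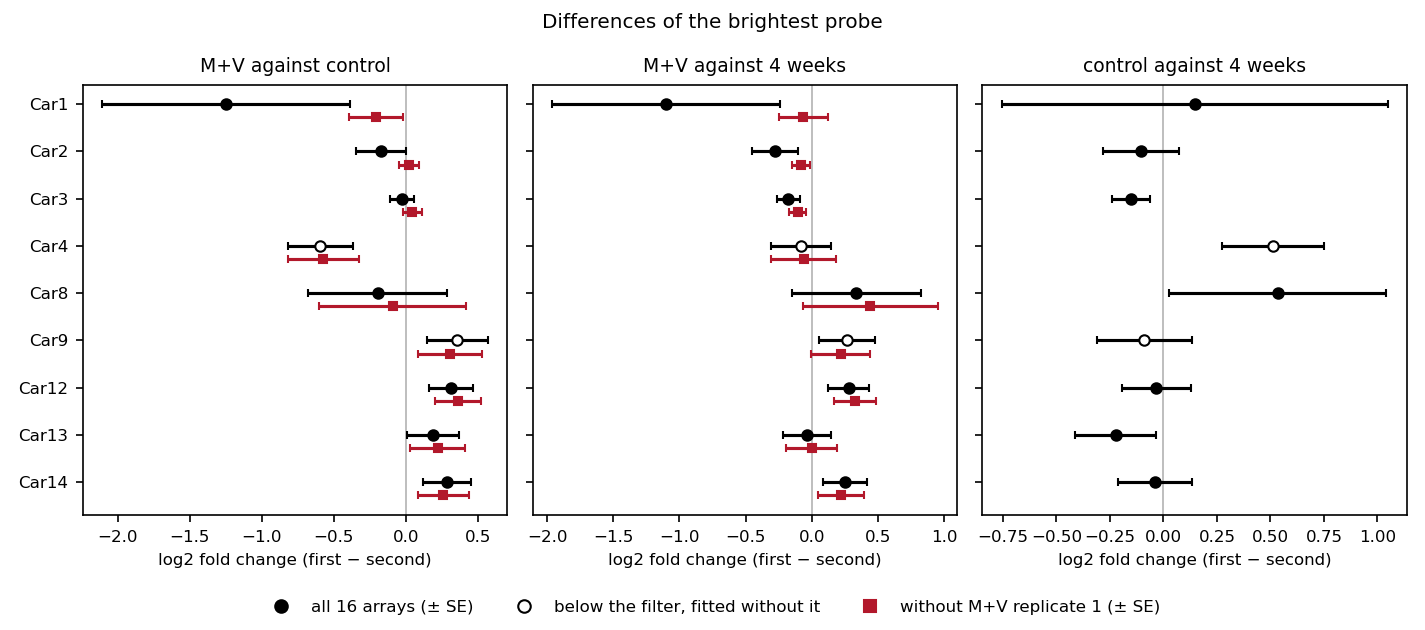
Log2 fold change with its SE of the brightest probe of each member in the 3 comparisons; open circles are members below the filter and red squares are the fits without M+V replicate 1. The differences of Car1 and Car2 between M+V and control are -0.21 and 0.02 without that array.

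Members not chosen here and the carriers of bicarbonate and protons complete the pathway. Of 7 further carbonic anhydrases (Car5a, Car5b, Car6, Car7, Car10, Car11 and Car15), Car7, Car10 and Car11 were tested and 0 of 3 passed in any comparison. Of 19 genes for bicarbonate and proton transport, 17 were measured and 10 tested; 0 passed for M+V against control, 1 higher and 1 lower for M+V against 4 weeks, and 0 higher and 1 lower for control against 4 weeks. The anion exchanger Slc4a2 averaged 9.59 in M+V and 9.02 in 4-week cochleae (log2 fold change 0.57, SE 0.12, adjusted p = 0.0122). The sodium-proton exchanger Slc9a2 averaged 7.92 in M+V and 8.48 in 4-week cochleae (-0.56, SE 0.15, adjusted p = 0.0382), and 7.81 in control cochleae against the same 4-week value (-0.67, SE 0.16, adjusted p = 0.043). The call of Slc9a2 was lost without any of 8 arrays in the first comparison and any of 13 in the second, whereas Slc4a2 held without each array in turn. Slc4a2 missed the threshold within the high spike-in level (0.72, adjusted p = 0.0546), without a filter (0.0558), with the methods' own test (0.067) and with the oligodendrocyte and astrocyte covariate (0.0538). Slc4a1, the anion exchanger of red blood cells, had a log2 difference of -1.51 (SE 1.07, adjusted p = 0.67) for M+V against control, which rested on M+V replicate 1. It was at 5.22 in that array, against 12.45 to 13.54 in the other 15, and without it the value was -0.21 (SE 0.18, adjusted p = 0.78).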

How the data were processed

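Whole-cochlea RNA was hybridized to an Affymetrix mouse GeneChip. The authors extracted signals with GCOS and MAS5 (versions not given in the sources used here) and quantile-normalized them; the deposited values are on the log2 scale, from -3.31 to 15.4. Signals under 1 were set to 1 (0.869% of values). Of 45101 probes, 64 controls were left out, and the filter kept probes at or above the 50th percentile of their array in all arrays of 1 group or more (21391 probes of 11457 genes). Present calls, which the methods used, were not used here.

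Group means were estimated from all 16 arrays in 1 fit with limma 3.58.1 (R 4.3.3). Its two-sided p-values were adjusted by Benjamini-Hochberg over these probes, and a probe was called at an adjusted p under 0.05. A gene was read from its brightest tested probe; Car4 and Car9, and the dim probes, come from the fit without the filter. Exact permutation tests used group means, and relations to lists 100000 permutations. The code was tested on simulated data. Named genes were all members with every probe, the 3 genes most like each member, and list genes with the largest moderated t. The 3 most like a member have the highest r among all tested genes and were not tested, so they are a description. The members and gene lists were chosen with earlier results of these data known.

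Replicates are separate mice, and the number of arrays limits the precision. Same-numbered arrays of different groups had residual correlations with a median of 0.0126 in 15 pairs, 6 of them over 0.1, so numbers were not used as pairs. Alternatives were other normalizations, offsets, filters and tests, array weights, blocks, covariates and leaving out each array.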

Additional observations from a re-analysis of the deposited data

Results flagged for a closer look

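In 57 groups of arrays (19 probes in 3 groups), 9 held an array far from the others of its group by Dixon's test. The nominal rate of that test is about 1 in 20, and the share over all probes was not computed. The 57 groups are not independent, since they share arrays and several probes share a gene, so the count is a description. M+V replicate 1 was the lowest M+V array for Car1 (6.01, with the next at 11.54), Car2 (13.40, with the next at 14.48), Car3 probe 1430584_s_at (8.04, with the next at 9.03) and Car3 probe 1449434_at (14.49, with the next at 14.81). On Car3 probe 1460256_at, 4 weeks replicate 1 was the highest (14.06, with the next at 13.41).

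Car8 probe 1457904_at was lowest in M+V replicate 5 (1.31, with the next at 3.62) and in control replicate 4 (2.76, with the next at 4.64). Car12 probe 1447762_x_at was lowest in control replicate 2 (3.21, with the next at 5.60), and Car13 probe 1439620_at was highest in control replicate 3 (7.77, with the next at 7.32).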

How the results depend on the processing

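The count of members called by the brightest probe was 0 in all 3 comparisons under every alternative run, except that counting any tested probe gave 1 member (Car3) for M+V against 4 weeks and 1 for control against 4 weeks. With the replicate block it was also 0 in each. The block ended the call of Car3 probe 1453588_at for control against 4 weeks (-0.97, adjusted p = 0.0821) and of Slc9a2 in both comparisons. It changed no other call of the Car3 probes or of Slc4a2, and Ugt8a and Mal were not refitted with it. Over all probes, M+V against 4 weeks gave 1129 calls (257 with Welch's test to 2485 with array weights, 710 with the replicate block), and control against 4 weeks 295 (22 within 1 spike-in level to 1012 with array weights, 166 with the replicate block).

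Called Car3 probes missed the threshold under some settings. Probe 1453588_at in M+V did so with Welch's test (adjusted p = 0.0693), within 1 spike-in level (0.054) and with the oligodendrocyte and astrocyte lists as a covariate (0.0522). Probe 1430584_s_at in M+V did so without a filter (0.0738), with Welch's test (0.0975), with that covariate (0.0976) and without 4 weeks replicate 1 (0.0539). Probe 1453588_at in control did so without a filter (0.143), with a filter at the 25th percentile (0.0711), with Welch's test (0.0774) and with the spike-in block (0.165). A filter at the 75th percentile left this probe out, so it has no value of its own there. Within the high spike-in level, with 1 control array, its log2 difference was -0.52. Probe 1430584_s_at in control passed without M+V replicate 1 (0.017), with array weights (0.0159), with only the groups compared (0.0368) and with the erythroid covariate (0.0261). Slc9a2 lost its call under 8 settings for M+V (adjusted p 0.0609 to 0.17) and 7 for control against 4 weeks, left-out arrays apart. For control the adjusted p was 0.0644 to 0.157, apart from the high spike-in level, where 1 control array remained (log2 difference -0.50). Both counts include the filter at the 75th percentile, which left Slc9a2 out, so that setting repeats the fit without a filter.

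Signs turned for differences that passed no test. For M+V against control, the erythroid covariate gave 0.0590 for Car1, 0.0701 for Car2 and 0.0577 for Car3, the brain covariate 0.00719 for Car3 and the arrays of 1 spike-in level 0.0274 for Car2; for M+V against 4 weeks, the erythroid covariate gave 0.19 for Car1, array weights 0.13 for Car4, the brain covariate 0.11 for Car4 and 0.0679 for Car13, the spike-in block 0.0785 and the arrays of 1 level 0.0897 for Car13. For control against 4 weeks, the spike-in block gave -1.38 for Car1, 0.22 for Car9, 0.00321 for Car12 and 0.0307 for Car14, and the arrays of 1 level 0.0616 for Car9. Leaving out 1 array at a time gave -0.22 to 0.0225 for Car2, -0.0574 to 0.0448 for Car3 and -0.59 to 0.13 for Car8 (M+V against control), -0.20 to 0.0227 for Car4, -0.0525 to 0.55 for Car8 and -0.14 to 0.0918 for Car13 (M+V against 4 weeks), and -0.20 to 0.0775 for Car9, -0.12 to 0.0777 for Car12 and -0.12 to 0.0933 for Car14 (control against 4 weeks). Apart from the covariates, blocks and left-out arrays, whose construction changes the comparison, the causes were not tested. Dim probes (Car4, Car9 and parts of Car8 and Car12) lie where MAS5 signals vary most between arrays.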
